A study of Mus musculus with 6 samples.

Results

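The genes described here are 10 genes of the Hippo signalling pathway in mouse Neuro2A cells, out of 55385 genes in the deposited table. They are the co-activator genes Wwtr1 (which encodes TAZ) and Yap1, the transcription factor genes Tead1, Tead2, Tead3 and Tead4, the kinase genes Lats1, Lats2 and Stk3, and the feedback target Amotl2. They were chosen by gene symbol for their place in the pathway and, in the case of Wwtr1, because its value was higher after silencing of circCpsf6. Values of Wwtr1 in that comparison are therefore a description and not a test. Neuro2A is a mouse neuroblastoma line labelled as neuroblasts. The compared groups were cells transfected with a small interfering RNA (siRNA) against the circular RNA circCpsf6 (si-circCpsf6, 3 libraries) and cells transfected with the comparison siRNA si-NC (3 libraries), each siRNA at 100 nM. Both groups were grown in the same serum-containing medium, and no other agent or genetic change is named in the labels.

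The Hippo pathway limits growth by keeping the co-activators YAP and TAZ out of the nucleus. MST kinases (encoded by Stk4 and Stk3), with the scaffold SAV1, activate LATS kinases, which work with MOB1 and phosphorylate YAP and TAZ, so that both are held in the cytoplasm or degraded. When they are not phosphorylated, YAP and TAZ enter the nucleus, bind TEAD transcription factors and switch on genes such as Ccn1, Ccn2, Ankrd1, Amotl2 and Lats2. The last of these genes feed back on the pathway. Much of this control acts on protein and is not seen in RNA levels. In human neuroblastoma, YAP and TAZ are known for high levels in cells of mesenchymal character and low levels in adrenergic, neuron-like cells.

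Expression was given as FPKM, a fragment count scaled to transcript length and to library size, so levels of different genes can be set side by side. In a search of the low values for steps worth 1 fragment, whole multiples of the best step, within 0.1, made up 27.8% to 30.3% of values. Depth and counts were therefore not recovered, and the counting error is unknown. All 10 markers of sympathoadrenal neuroblasts averaged at least 1 FPKM. Of 5 fibroblast markers, 1 did so, as did 1 of 4 endothelial markers and none of 4 macrophage or 4 epithelial markers. No label states that the replicates come from different cultures. The p-values therefore cover variation among the libraries at hand, and it may be technical.

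Wwtr1 supplied nearly all of the co-activator RNA in these cells, and every si-circCpsf6 library read it higher than any si-NC library. Wwtr1 (ENSMUSG00000027803, chromosome 3, 57455649 to 57575910, minus strand, GRCm38) read 10.3, 19.58 and 9.81 FPKM in si-circCpsf6 replicates 1 to 3, against 1.66, 4.21 and 0.85 FPKM in si-NC replicates 1 to 3. The groups did not overlap, and replicate 2 was the highest library of each. The means were 13.2 ± 5.5 FPKM in si-circCpsf6 and 2.24 ± 1.75 FPKM in si-NC (SD, n = 3 each), a ratio of 5.91. On the log2(FPKM + 1) scale the fold change was 2.21 (standard error 0.40). In si-circCpsf6, 70.8% of the tested genes had a lower mean than Wwtr1, against 17.4% in si-NC. The processed pseudogene Gm16016 lies within Wwtr1 on the other strand. It read 0, 0.15 and 0.22 FPKM in si-circCpsf6 and was listed at 0 in each si-NC library.

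Genes averaging 1 FPKM or more across all libraries, 12974 of them, were tested together with limma, which fits a linear model to each gene. At a Benjamini-Hochberg adjusted p under 0.05, 0.902% of tested genes (117) were higher in si-circCpsf6 and 0.786% (102) were lower. With any 1 library left out, at most 43 genes were higher and at most 44 lower, and without si-NC replicate 3 the counts were 1 higher and 2 lower. Of the 10 genes, 4 could be tested (Wwtr1, Tead1, Lats1 and Stk3), and Wwtr1 was the 1 gene among them past the threshold. Nothing is read from that count, since Wwtr1 was picked for this difference. Its call did not hold with any 1 library left out (limma adjusted p 0.0531 to 0.16), while the log2 fold change stayed between 1.87 and 2.62. Of all tested genes, 12.8% had non-overlapping groups with si-circCpsf6 higher and 14% with si-circCpsf6 lower.

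**Figure D1:**
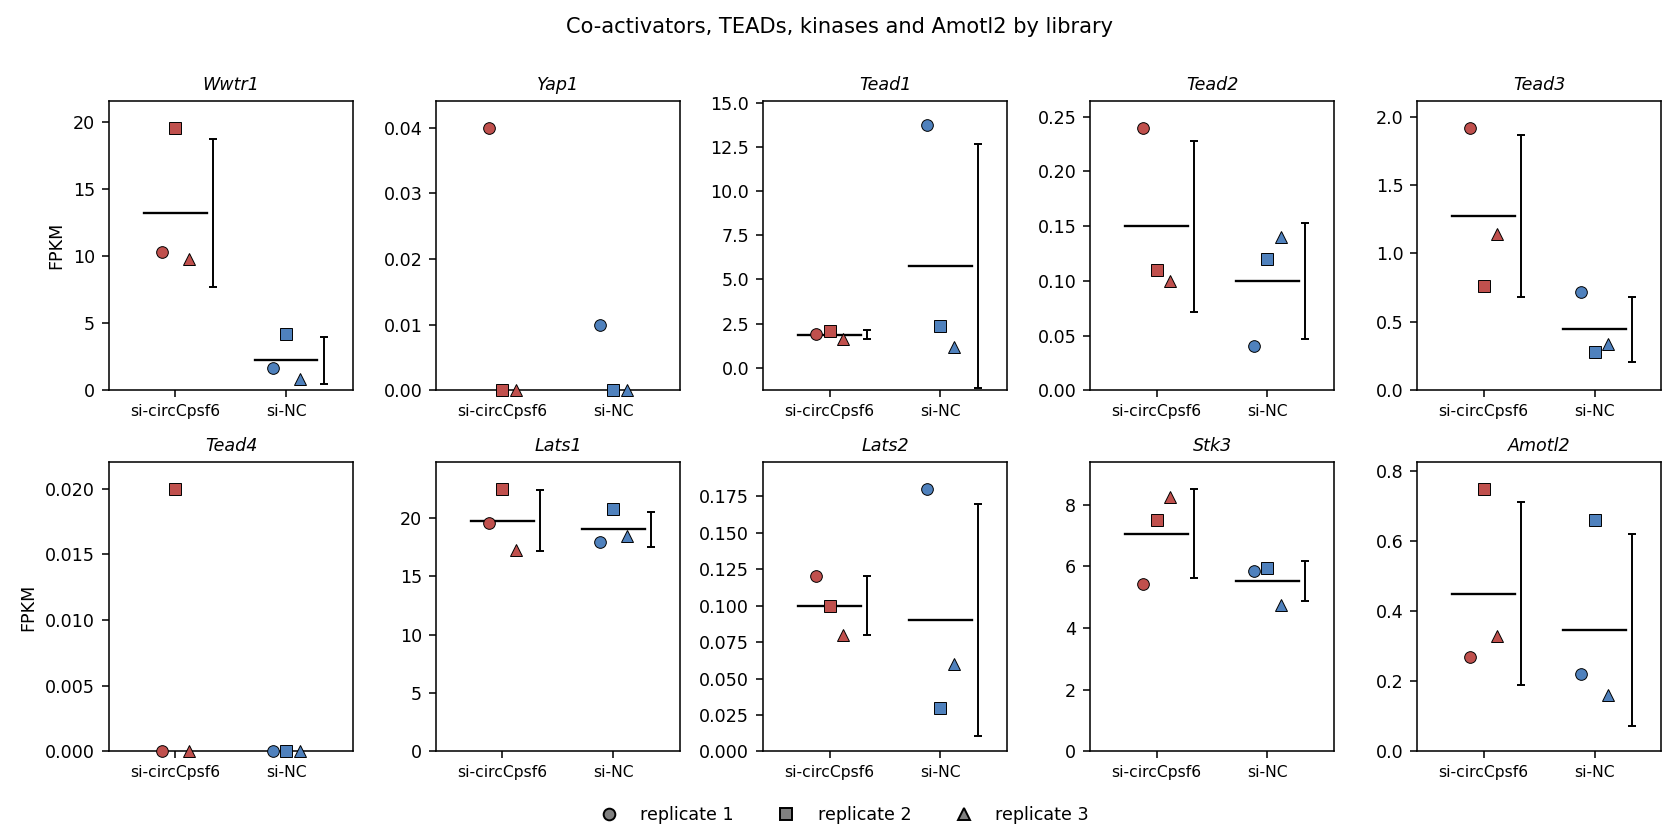
FPKM of the 10 genes in each library, si-circCpsf6 on the left of each panel and si-NC on the right, on linear axes that differ between panels. Symbols give the replicate number, horizontal lines the mean and bars the SD (n = 3), both drawn only where no library was listed at 0. Wwtr1 sits between 9.81 and 19.58 FPKM in si-circCpsf6 and between 0.85 and 4.21 FPKM in si-NC, and Tead1 has 1 high library, si-NC replicate 1 at 13.72 FPKM.

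Yap1 (chromosome 9, 7931999 to 8004596, minus strand), the close relative of Wwtr1, was barely read in either group. It was at 0.04 FPKM in si-circCpsf6 replicate 1 and 0.01 FPKM in si-NC replicate 1, and was listed at 0 in the other 4 libraries. The table is rounded to 0.01 FPKM, so these values stand 1 to 4 rounding steps above 0, and no difference between the groups can be read from them. Wwtr1 made up 99.4% to 100% of the summed FPKM of the pair in every library. The higher co-activator sum in si-circCpsf6, 13.2 ± 5.49 FPKM against 2.24 ± 1.75 FPKM in si-NC (SD, n = 3 each), was thus Wwtr1 alone to within 0.04 FPKM.

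The 2 replicate 1 libraries also held genes that the other libraries lacked. Ccn2, a classical YAP and TAZ target, read 0.77 FPKM in si-circCpsf6 replicate 1 and 1.12 FPKM in si-NC replicate 1, and was listed at 0 in the other 4. Vgll3, Fat4 and Foxf2 of the lists used here had the same pattern of values above 0 in both replicate 1 libraries alone, as did 215 genes of the whole table. The count was 134 genes for replicate 2 and 186 for replicate 3. The 5 fibroblast markers together read 6.09, 1.07 and 3.18 FPKM in si-circCpsf6 and 7.42, 0.99 and 1.64 FPKM in si-NC, highest in replicate 1 of each group. Col1a1, the best read of them, was at 3.69, 0.16 and 1.13 FPKM in si-circCpsf6 and 4.53, 0.13 and 0.86 FPKM in si-NC. Col1a2 was also highest in replicate 1 of each group, at 1.35 FPKM in si-circCpsf6 and 2.3 FPKM in si-NC. Dcn was instead lowest in replicate 1 of each group. It read 0.2, 0.29 and 0.63 FPKM in si-circCpsf6 and 0.13, 0.25 and 0.18 FPKM in si-NC. Pdgfra was highest in replicate 1 of si-circCpsf6 but in replicate 2 of si-NC. Lum was at or near 0, with a highest value of 0.2 FPKM. The part of fibroblast transcripts in the Yap1 and Ccn2 values was not tested. The log2 fold change of Wwtr1 without both replicate 1 libraries was 2.26 (limma adjusted p = 0.165), a setting chosen after the values were seen.

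Summed levels of several marker lists differed between the groups, as Wwtr1 did. The 10 sympathoadrenal markers summed to 550 to 1042 FPKM in si-circCpsf6 and to 1602 to 2658 FPKM in si-NC, and no marker was at 0. Of the 10, 7 had a log2 fold change below 0 and 3 above it. Those above were Elavl4, at 23.9 ± 7.22 FPKM in si-circCpsf6 and 14.4 ± 2.04 FPKM in si-NC (SD, n = 3 each, log2 fold change 0.66), Gata3 (0.30) and Stmn2 (0.24), and the groups overlapped for all 3. The sum was weighted by the most abundant marker, Chgb, a granin of secretory granules, at 199.17 to 616.97 FPKM in si-circCpsf6 and 1073.28 to 2073.04 FPKM in si-NC (limma adjusted p = 0.065). Chga, another granin, was the 1 marker of 10 past the test, at 110 ± 22.5 FPKM in si-circCpsf6 and 234 ± 13 FPKM in si-NC (SD, n = 3 each, limma adjusted p = 0.0335). The endothelial markers summed to 1.59 to 3.19 FPKM in si-circCpsf6 and 0.79 to 1.21 FPKM in si-NC, with Cdh5 and Kdr at or near 0. Of the other endothelial markers, Tek had groups apart, at 0.42 to 1.47 FPKM in si-circCpsf6 and 0.14 to 0.21 FPKM in si-NC. Pecam1 overlapped, at 0.67 to 2.04 FPKM in si-circCpsf6 and 0.59 to 1.06 FPKM in si-NC. The epithelial markers summed to 1.09 to 1.43 FPKM in si-circCpsf6 and 0.49 to 0.77 FPKM in si-NC, nearly all of it Krt8, with Krt18 listed at 0 throughout. The macrophage sums overlapped, at 0.63 to 1.09 FPKM in si-circCpsf6 and 0.80 to 1.31 FPKM in si-NC, with Ptprc at or near 0. The part of these marker differences in the Wwtr1 values was not tested. In such bulk libraries, fewer cells of a type and less RNA per cell cannot be told apart.

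Because TEAD proteins carry YAP and TAZ to DNA, the upstream region of Wwtr1 is shown with the core of the TEAD binding motif. The 250 bases before its most upstream start in RefSeq (GRCm38.p6, chr3:57575911-57576160, minus strand) read 5′ to 3′ as follows, with the motif in capitals.
Wwtr1 upstream: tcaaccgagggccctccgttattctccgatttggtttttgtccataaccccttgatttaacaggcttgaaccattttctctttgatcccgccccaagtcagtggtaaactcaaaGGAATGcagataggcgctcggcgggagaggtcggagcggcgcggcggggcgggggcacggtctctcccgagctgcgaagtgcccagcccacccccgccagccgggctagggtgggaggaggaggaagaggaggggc
The motif was GGAATG, searched on both strands (CATTCC on the other), in windows from 250 bases before to 50 after each start. It stood in at least 1 window of 5 of the 7 genes with an entry (Wwtr1, Yap1, Tead3, Lats2 and Amotl2) and in none for Tead2 and Lats1. Tead1, Tead4 and Stk3 have no entry. By window it was 7 of 11 (63.6%), against 14.7% of all 32851 promoter windows. Wwtr1, Tead3 and Lats2 have more than 1 window each. Windows overlap for Wwtr1 and for Tead3, so they are not independent.

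Sites of Yap1 and Amotl2 are shown beside those of Ankrd1 and Ccn1, which are textbook TEAD targets, in windows of 30 bases with the motif in capitals.
Wwtr1 (chr3:57576029-57576058, minus strand): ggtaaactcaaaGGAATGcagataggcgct
Yap1 (chr9:8004720-8004749, minus strand): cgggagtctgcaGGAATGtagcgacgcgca
Amotl2 (chr9:102717727-102717756, plus strand): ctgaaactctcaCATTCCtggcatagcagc
Ankrd1 (chr19:36120037-36120066, minus strand): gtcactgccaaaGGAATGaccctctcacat
Ccn1 (chr3:145650071-145650100, minus strand): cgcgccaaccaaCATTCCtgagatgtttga
Counted from the start, the motif began at -136 in Wwtr1, -141 in Yap1, -65 in Amotl2, -210 in Ankrd1 and -103 in Ccn1. Ankrd1 held another copy in the same window, at -123. Of these 5 genes only Wwtr1 averaged above 2 FPKM in either group, so a motif match went with levels from near 0 to 13.2 FPKM. In the target list used below, 7 of 15 genes with an entry held the motif, against 16.6% of all genes by the same count. Tgfb2, the 1 gene of that list called higher by limma, has an entry and held no copy. A match is a sequence, not a measured binding site.

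TEAD genes were read at low levels, and Tead1 and Tead3 made up most of them. Tead1 (chromosome 7, 112679318 to 112906807, plus strand) read 1.89, 2.11 and 1.65 FPKM in si-circCpsf6 and 13.72, 2.37 and 1.19 FPKM in si-NC. The 3 si-circCpsf6 values lay inside the si-NC range, and si-NC replicate 1 stood far above the other 5 libraries. On the log2 scale the fold change was -0.73 (standard error 0.62, limma adjusted p = 0.555). Without si-NC replicate 1 it was 0.08. The authors' deposited table marks Tead1 as lower and significant, with a ratio of 0.33 and a q-value of 0.10. Of the genes that overlap Tead1, 2310014F06Rik read 0.07 FPKM and the microRNA gene Gm44462 read 0.14 FPKM in si-NC replicate 1, and neither had its highest value there.

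Tead3 (chromosome 17, 28331671 to 28350817, minus strand) was too low for the test but separated the groups. It read 1.92, 0.76 and 1.14 FPKM in si-circCpsf6 and 0.72, 0.28 and 0.34 FPKM in si-NC, with means of 1.27 ± 0.591 FPKM in si-circCpsf6 and 0.447 ± 0.239 FPKM in si-NC (SD, n = 3 each) and a log2 fold change of 0.63. The lowest si-circCpsf6 library exceeded the highest si-NC library by 0.04 FPKM. Among genes with a mean of 0.5 to 1 FPKM, 10.3% had groups apart in this direction. In the alternative fit with no filter on low values, Tead3 did not pass (limma adjusted p = 0.364). The authors' deposited table marks Tead3 as higher and significant, with a ratio of 2.85 and a q-value of 0.05. That table marks 3.16% of genes with any value above 0 as significant, and 3 of the 10 here, Wwtr1 with a ratio of 5.91 among them. No result is read from this count, since Wwtr1 was picked for its difference. Tead1 had 1 far higher si-NC library.

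Tead2, a TEAD gene known for its role in early neural development, read 0.24, 0.11 and 0.1 FPKM in si-circCpsf6 and 0.04, 0.12 and 0.14 FPKM in si-NC, with overlapping groups. Tead4 was listed at 0 in 5 libraries and at 0.02 FPKM in si-circCpsf6 replicate 2. Tead1 held 46.7%, 70.3% and 57.1% of the summed TEAD FPKM in si-circCpsf6 and 94.8%, 85.6% and 71.3% in si-NC. The sum was 4.05, 3.00 and 2.89 FPKM in si-circCpsf6 and 14.5, 2.77 and 1.67 FPKM in si-NC. The TEAD sums thus overlapped between groups, while Tead1 held a lower share of them in every si-circCpsf6 library than in any si-NC library. The closest shares were 70.3% in si-circCpsf6 and 71.3% in si-NC. Tead3, which was higher in si-circCpsf6, enters the same sums, and the difference in share was not tested.

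**Figure D2:**
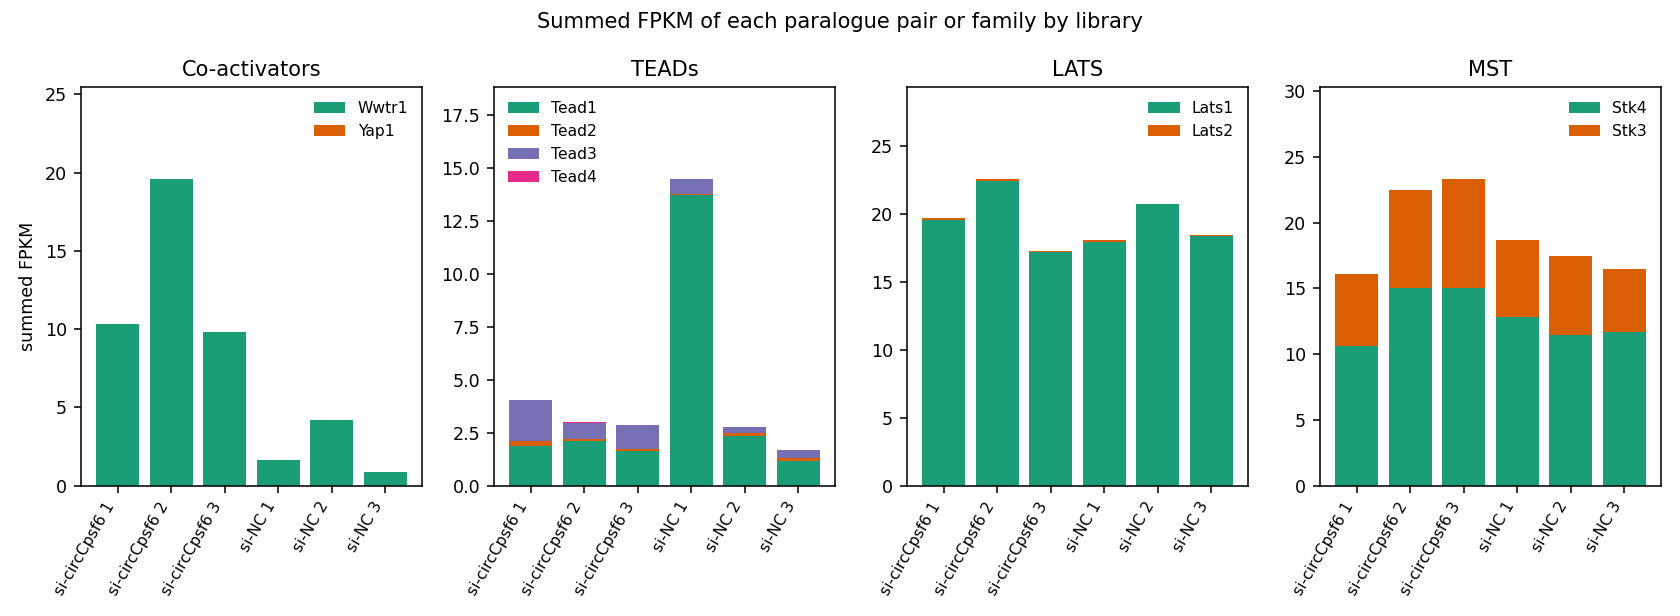
Summed FPKM of the co-activator pair, the 4 TEAD genes, the LATS pair and the MST pair in each library, si-circCpsf6 libraries left of si-NC libraries, with colours for the genes of each family. Wwtr1 holds at least 99.4% of the co-activator sum and Lats1 at least 99.0% of the LATS sum in every library, while both MST genes are read, Stk4 at 64.6% to 71.1%.

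Among the kinase genes, Lats1 and Stk3 did not pass the test and Lats2 was too low for it. Lats1 (chromosome 10, 7681214 to 7716460, plus strand), which phosphorylates YAP and TAZ, was the highest of the 10 genes at 19.57, 22.48 and 17.23 FPKM in si-circCpsf6 and 17.92, 20.74 and 18.43 FPKM in si-NC. Its groups overlapped, and its log2 fold change was 0.05 (standard error 0.14, limma adjusted p = 0.888). Without si-circCpsf6 replicate 2 it was -0.05. Lats2 (chromosome 14, 57689662 to 57758388, minus strand), a LATS kinase gene that YAP and TAZ also switch on, read 0.12, 0.1 and 0.08 FPKM in si-circCpsf6 and 0.18, 0.03 and 0.06 FPKM in si-NC. Lats1 supplied 99.0% to 99.9% of the summed LATS FPKM. The pseudogene Gm20430 lies within Lats2 on the other strand and was read higher than Lats2 itself, at 2.12, 0.11 and 1.47 FPKM in si-circCpsf6 and 2.19, 1.1 and 1.56 FPKM in si-NC.

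Stk3 (chromosome 15, 34875496 to 35178921, minus strand), which encodes MST2, read 5.44, 7.49 and 8.25 FPKM in si-circCpsf6 and 5.86, 5.95 and 4.76 FPKM in si-NC. The groups overlapped through si-circCpsf6 replicate 1, and the log2 fold change of 0.29 (standard error 0.17) did not pass the test (limma adjusted p = 0.398). Its partner Stk4, which encodes MST1, was higher in level than Stk3 in all 6 libraries, at 10.63, 15.01 and 15.06 FPKM in si-circCpsf6 and 12.8, 11.49 and 11.71 FPKM in si-NC. The MST sum was 20.6 ± 3.97 FPKM in si-circCpsf6 and 17.5 ± 1.1 FPKM in si-NC (SD, n = 3 each).

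Amotl2 (chromosome 9, 102716672 to 102733418, plus strand) encodes an angiomotin that binds YAP and activates LATS, and it is itself a YAP and TAZ target. It read 0.27, 0.75 and 0.33 FPKM in si-circCpsf6 and 0.22, 0.66 and 0.16 FPKM in si-NC. The groups overlapped, and replicate 2 was well above the other libraries in each. Replicate 2 was also the highest of both groups for Wwtr1, Lats1 and the targets Ankrd1 and Gadd45a, as it was for 17.4% of all tested genes. These genes were singled out after their values were seen.

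Ordered by mean level over the 6 libraries, Lats1 came first at 19.4 FPKM, followed by Wwtr1 at 7.73, Stk3 at 6.29, Tead1 at 3.82, Tead3 at 0.86 and Amotl2 at 0.398 FPKM. Tead2 followed at 0.125, Lats2 at 0.095, Yap1 at 0.00833 and Tead4 at 0.00333 FPKM. The range over libraries of each gene overlapped that of the next in the order. Within libraries, Lats1 exceeded Wwtr1 in 6 of 6, Wwtr1 exceeded Stk3 in 3 of 6, and Stk3 exceeded Tead1 in 5 of 6. The place of Wwtr1 depended on the group, above Stk3 in each si-circCpsf6 library and below it in each si-NC library.

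Most genes of the wider pathway were read in these cells, and none passed the test. Of 40 further Hippo pathway genes, 31 could be tested, and 0 were called higher and 0 lower by limma, against 0.902% and 0.786% of all tested genes. An unadjusted p under 0.05 was seen for 8 of 31, against 20.3% of all tested genes. Their median log2 fold change was 0.02, against -0.02 over all tested genes, and they lay between -0.50 and 0.56. The groups were apart with si-circCpsf6 higher in 4 of 31 (12.9%) and with si-circCpsf6 lower in 5 of 31 (16.1%), close to the shares of 12.8% and 14% over all tested genes. Those higher were Dchs1, Tnik, Frmd6 and Stk38l, and those lower were Limd1, Csnk1d, Map4k5, Stk38 and Taok2, some of them named here after their values were seen.

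The 4 genes with the smallest p-values were Dchs1, Tnik, Csnk1d and Limd1. Dchs1, a giant cadherin that acts as a ligand of FAT4, read 12.05, 9.9 and 12.89 FPKM in si-circCpsf6 and 8.25, 7.26 and 7.71 FPKM in si-NC (log2 fold change 0.52, limma adjusted p = 0.1). Its receptor gene Fat4 had a highest value of 0.03 FPKM. Tnik, a kinase of the MAP4K group, was at 4.48 ± 0.658 FPKM in si-circCpsf6 and 2.88 ± 0.278 FPKM in si-NC (SD, n = 3 each, limma adjusted p = 0.131). Csnk1d, a casein kinase that marks phosphorylated YAP and TAZ for degradation, was at 45.6 ± 1.8 FPKM in si-circCpsf6 and 58.8 ± 0.9 FPKM in si-NC (SD, n = 3 each, limma adjusted p = 0.139). Limd1, a LIM protein that restrains LATS, was at 3.17 ± 0.672 FPKM in si-circCpsf6 and 4.84 ± 0.31 FPKM in si-NC (limma adjusted p = 0.141).

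The partners of the core kinases were well read in both groups. Mob1a, the LATS co-activator, read 22.6 to 29.25 FPKM in si-circCpsf6 and 27.76 to 32.31 FPKM in si-NC. Sav1, the MST scaffold, read 3.48 to 4.69 FPKM in si-circCpsf6 and 3.79 to 5.79 FPKM in si-NC. The upstream activator Nf2 read 22.4 to 25.15 FPKM in si-circCpsf6 and 20.64 to 23.37 FPKM in si-NC, and its partner Wwc1 (KIBRA) 19 to 28.36 FPKM in si-circCpsf6 and 22.03 to 24.4 FPKM in si-NC. These ranges overlapped for each of the 4 genes. In contrast to these, Amot, Ptpn14, Fat4 and Vgll3 averaged under 0.1 FPKM, and Vgll1 and Vgll2 were listed at 0 in every library. These genes, and Vgll4, were picked for their roles after their values were known. Vgll4, a TEAD-binding repressor, read 4.21 to 6.32 FPKM in si-circCpsf6 and 4.26 to 5.33 FPKM in si-NC.

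**Figure D3:**
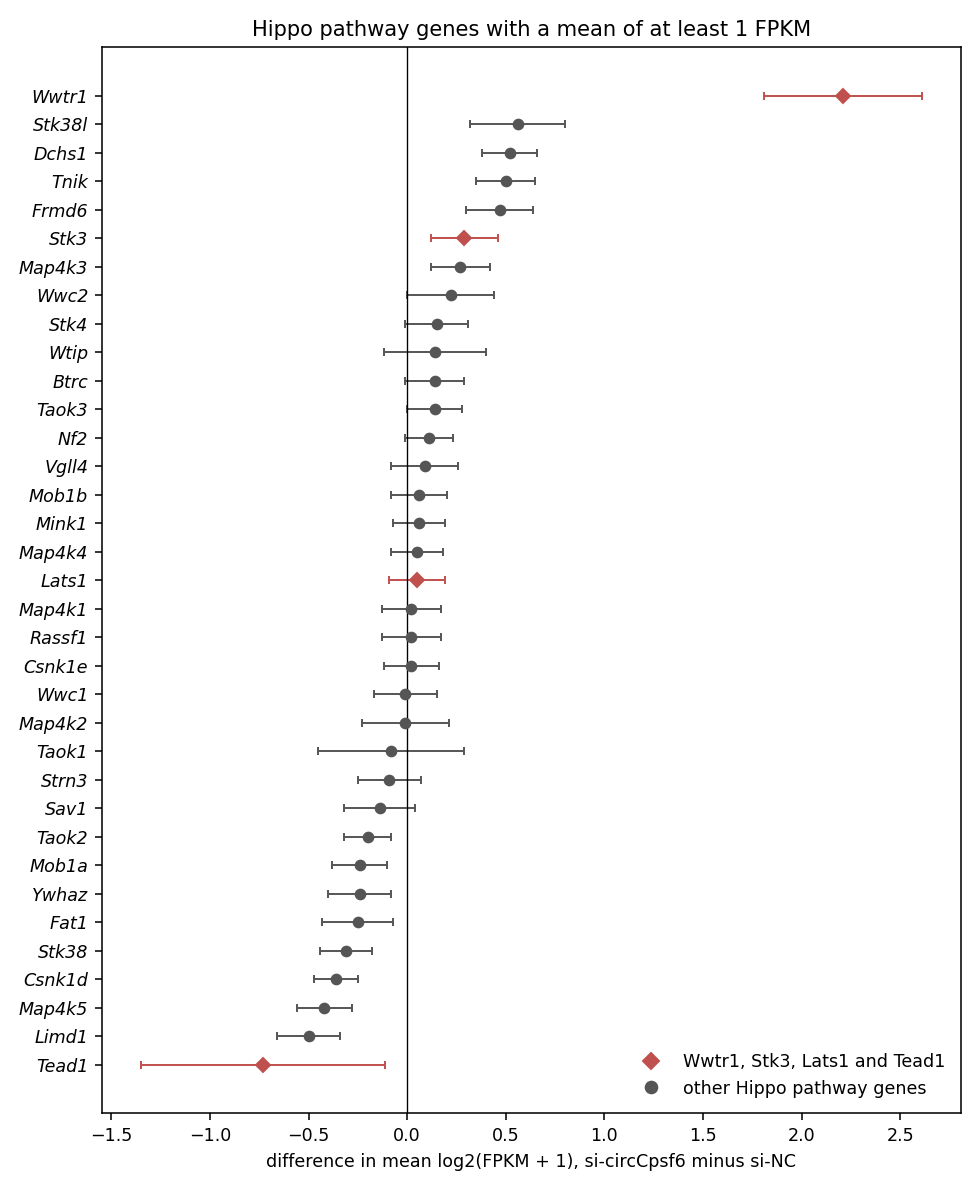
Log2 fold changes on the log2(FPKM + 1) scale, si-circCpsf6 minus si-NC, of the 35 tested pathway genes with limma standard errors (n = 3 per group), ordered by size. Wwtr1 stands at 2.21, all other genes lie between -0.73 (Tead1) and 0.56 (Stk38l), and diamonds mark Wwtr1, Stk3, Lats1 and Tead1.

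Of the genes that YAP and TAZ are known to switch on, few reached 1 FPKM in these cells. Tgfb2 was the 1 called higher by limma. Of a list of 22 such genes, which holds Amotl2 and Lats2, 8 could be tested and 7 averaged under 0.1 FPKM. Tgfb2, the gene of a secreted growth factor, was called higher and 0 genes were called lower by limma, against 0.902% and 0.786% of all tested genes. An unadjusted p under 0.05 was seen for 2 of 8, against 20.3% of all tested genes, a share near the background. The median log2 fold change of the 8 was 0.13, against -0.02 over all tested genes. Of the 8, 5 were above 0 and 3 below it, against 6128 above 0 of all 12974 tested genes. Ccn1, 1 of the 5, averaged 1.36 FPKM in si-circCpsf6 and 0.78 FPKM in si-NC, so it passed the 1 FPKM filter only through si-circCpsf6. Tgfb2 read 8.4, 11.15 and 13.81 FPKM in si-circCpsf6 and 2.58, 2.62 and 1.88 FPKM in si-NC, with groups far apart (log2 fold change 1.83, standard error 0.20, limma adjusted p = 0.0151). It kept its call in 6 of 14 alternative fits, with an adjusted p of 0.0134 to 0.0767, and lost it without si-circCpsf6 replicate 2 or 3, without each si-NC replicate, without both replicate 1 libraries, with no filter and with the replicate number as a block.

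Gadd45a, a stress-induced growth arrest gene, read 9.3, 15.94 and 8.96 FPKM in si-circCpsf6 and 4.61, 9.52 and 3.01 FPKM in si-NC. Its groups overlapped through replicate 2 of si-NC (log2 fold change 0.96, limma adjusted p = 0.2). Ccn1, a matricellular target of YAP and TAZ, read 1.38, 1.62 and 1.08 FPKM in si-circCpsf6 and 1.47, 0.56 and 0.31 FPKM in si-NC (limma adjusted p = 0.379), its si-NC replicate 1 lying among the si-circCpsf6 values. Arhgef17, a guanine nucleotide exchange factor gene, was at 2.89 ± 0.32 FPKM in si-circCpsf6 and 3.69 ± 0.43 FPKM in si-NC (SD, n = 3 each, limma adjusted p = 0.353), with groups apart. Ankrd1, a classical target, read 0.02, 0.28 and 0.04 FPKM in si-circCpsf6 and 0, 0.12 and 0 FPKM in si-NC. Nuak2, a kinase gene singled out for its values, read 0.01, 0.06 and 0.04 FPKM in si-circCpsf6 and was listed at 0 in each si-NC library. These values lie near the 0.01 FPKM rounding step, so no difference between the groups is read from them. In the fit with no filter the limma adjusted p of Nuak2 was 0.497.

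**Figure D4:**
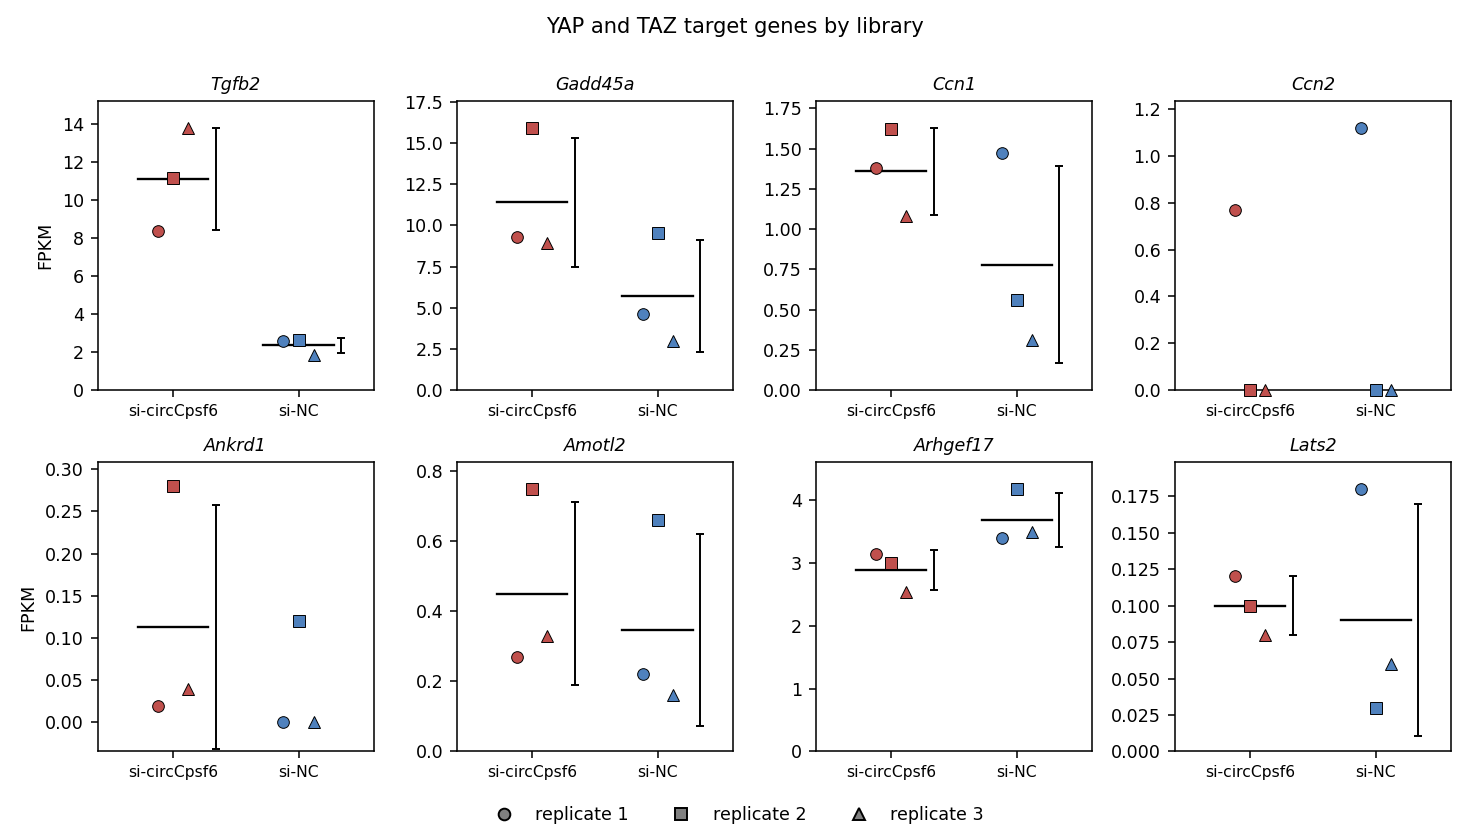
FPKM of 8 YAP and TAZ target genes in each library, si-circCpsf6 left and si-NC right, with symbols for the replicate number, and the mean and SD (n = 3) where no library was listed at 0. Tgfb2 separates the groups, at 8.4 to 13.81 FPKM in si-circCpsf6 and 1.88 to 2.62 FPKM in si-NC, while Ccn2 is above 0 in replicate 1 of each group alone.

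The 5 tested genes whose profile over the 6 libraries lay closest to that of Wwtr1 were Chchd10, Ptgs1, Cyb5r1, Akr1b7 and Mamdc2. Likeness was the root mean square distance between mean-centred log2(FPKM + 1) values, and it was 0.32 for Chchd10 and 0.40, 0.42, 0.43 and 0.45 for the others. Chchd10, a mitochondrial protein gene, read 105.63, 141.85 and 83.2 FPKM in si-circCpsf6 and 33.47, 33.29 and 14.44 FPKM in si-NC. Akr1b7, an aldo-keto reductase gene, read 7.47, 18.49 and 9.76 FPKM in si-circCpsf6 and 2.22, 9.36 and 1.14 FPKM in si-NC, highest in replicate 2 of each group as Wwtr1 was. No gene of the Hippo or target lists was among these 5. Those lists held only 31 and 8 of the 12974 tested genes, so nothing is read from their absence. The profiles include the group difference for which Wwtr1 was picked, so the 5 genes are a description.

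The 3′ untranslated regions were also read for the heptamer GCAGAAT, which an earlier search of these data found in many genes that were lower in si-circCpsf6. It stood in the longest annotated region of 11.1% of 10668 tested genes, whose median log2 fold change was -0.125, against -0.013 for those without it. The heptamer came from these same data, so the lower median of its carriers is a description and not independent support. Among the 10 genes, Wwtr1 and Tead1 each held 1 copy, Yap1 held 3 and the other 7 held none. The sites of the 2 tested genes (GENCODE transcripts, GRCm38) are shown with the heptamer in capitals.
Wwtr1 (chr3:57458659-57458688, minus strand): aggatgggttgtGCAGAATgactttagaga
Tead1 (chr7:112905728-112905757, plus strand): tgaaagaggtggGCAGAATccacacatcca
Wwtr1, with a log2 fold change of 2.21, lay on the other side of 0 from the median of genes that carry the heptamer, and Tead1, at -0.73, lay on the same side but overlapped between groups.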

How the data were processed

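Libraries of Trizol-extracted total RNA followed Illumina protocols with a small RNA kit, per the labels' protocols. The authors deposited 1 table with FPKM per gene and library (rounded to 2 decimals), their fold change as a ratio, its log2, and a p-value and a q-value for each gene (per the file headers). The test and FPKM program were not given in the sources used here. Bowtie 0.12.2, mm8 and mm9 are named, without roles, in the submitters' processing notes. Whether counting used strand is not given, so overlapping genes may share reads.

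Titles gave the groups. Genes averaging 1 FPKM or more were tested with limma 3.58.1 (R 4.3.3) on log2(FPKM + 1), group as the only term, with an intensity trend and Benjamini-Hochberg adjustment over all 12974 genes. This scale understates fold changes where expression is low. With 3 libraries per group, no exact permutation p can be under 0.1. The script was tested on simulated data. A further marker list is not reported here. Depth is unknown, so no counting interval is printed.

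Genes, lists and tests were chosen with earlier results of these data known. Besides the 10 genes, the text names list members past the test, the 4 with the smallest p in each list and the 5 nearest profiles to Wwtr1. The target list is a published signature recalled from memory. Positions and 3′ regions are from GENCODE M21 (GRCm38), where 55144 identifiers matched, and promoters from RefSeq (GRCm38.p6). Figures used Python 3.11.15 and matplotlib 3.10.9. Alternatives were other scalings, pseudocounts, filters and variance models, a replicate block, and leaving out libraries.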

Additional observations from a re-analysis of the deposited data

How the results depend on the processing

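Over all tested genes, 117 were called higher and 102 lower in si-circCpsf6. Leaving out both replicate 1 libraries was chosen after seeing the data. Leaving out 1 library or both replicate 1 libraries gave 1 to 43 higher and 2 to 44 lower (4 and 4 without both), no filter on low values gave 4 and 9, and the replicate number as a block gave 6 and 5. Same-numbered libraries deviated together with correlations of 0.103, 0.129 and 0.084 for replicates 1, 2 and 3, so the numbers were not taken as pairs, although each library correlated best with its own number. Median centring, quantile normalization, a pseudocount of 0.1, a filter at 5 FPKM and limma without trend kept both counts within 1.5 times. No Hippo list gene was called in any of 14 alternatives. So few genes of the whole table were called in several of these fits that nothing about the pathway is read from that. In the target list the count called higher went to 0 with no filter, with the block and without both replicate 1 libraries, and was 0 to 1 with 1 library left out.

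Wwtr1 stayed positive in all 14 alternatives (1.87 to 2.71) and was past the threshold in 4 of them, with a limma adjusted p of 0.0384 (block) to 0.165. The other losses were at 0.0512 without trend, 0.0572 with a pseudocount of 0.1 and 0.141 with no filter. With 1 library left out, Tead1 ranged from -1.29 to 0.08 (0.08 without si-NC replicate 1, and 0.08 without both replicate 1 libraries) and Lats1 from -0.05 (without si-circCpsf6 replicate 2) to 0.14. The cause of these changes was not tested. Tead1 had no value with the filter at 5 FPKM. Values of Yap1 and Tead4 lie near the 0.01 FPKM to which the table is rounded, so no difference between the groups can be read from them.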
